A study of Mus musculus with 22 samples.

Results

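Ts66Yah mice carry an additional copy of several genes whose products process RNA or keep the genome intact during replication and division. The 7 genes described here are Urb1, Son, Scaf4 and Paxbp1, which act on RNA, and Donson, Chaf1b and Mis18a, which act on replication, chromatin and the centromere. They were chosen by name and function, with earlier results of these data known. The choice was among the 291 annotated genes of the triplicated part of mouse chromosome 16 (Mmu16), out of 55385 genes in the count table. All 7 had counts in every library. RNA-Seq counts came from 11 male mice aged 5 to 6 months, 6 Ts66Yah and 5 wild-type (wt) control littermates, each of which gave a library of the hippocampus (HIP) and another of the entorhinal cortex (EC), 22 in all. The Ts66Yah chromosome is a minichromosome that segregates on its own. It holds Mmu16 from Mir155 to the telomere and was derived from Ts65Dn by CRISPR/Cas9 removal of the centromeric Mmu17 genes. The line descends from a single mosaic male and was kept on a mixed C57BL/6 and C3H-derived background that wt littermates share. With 3 copies against 2, proportional expression would give a 1.5-fold level.

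Several of these genes work in pathways that every cell uses. Urb1 is a nucleolar protein needed for the maturation of the large ribosomal subunit. Son is a large scaffold protein of nuclear speckles, the bodies where splicing factors collect, and it helps the splicing of weak splice sites. Scaf4 binds the tail of RNA polymerase II and, with its paralogue Scaf8, prevents the use of early polyadenylation sites. Paxbp1 was named for binding PAX3 and PAX7 and is a paralogue of Gcfc2, a factor of the complex that releases excised introns. Donson protects and helps to start DNA replication forks. Chaf1b is a subunit of CAF-1, the chaperone that loads histones onto newly copied DNA, and Mis18a belongs to the complex that licenses centromeres for new CENP-A. The last 3 functions belong to dividing cells, whereas most cells of the adult brain no longer divide.

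All coordinates are on GRCm38. From centromere to telomere, Scaf4 lies at chr16:90225680-90284503 on the minus strand, Mis18a at chr16:90719312-90727404 on the minus strand and Urb1 at chr16:90751527-90810413 on the minus strand. Paxbp1 follows at chr16:91014037-91044543 on the minus strand, Son at chr16:91647506-91679221 on the plus strand, Donson at chr16:91676808-91688770 on the minus strand and Chaf1b at chr16:93883901-93906115 on the plus strand. The segment itself spans chr16:84714140-98082450. Son and Donson overlap at their 3′ ends, where 103 exon bases are shared, which is 0.691% of the exon bases of Son and 3.29% of those of Donson. Another 287 exon bases of Donson are shared with an Atp5o entry on the same strand that had no counts. Of the exon bases of Paxbp1, 20.7% lie under the antisense transcript 4930404I05Rik. The libraries were made with a kit that keeps strand, but the strand setting of the counting is not given in the sources used here, so reads of such partners might not be separated. Urb1, Scaf4, Chaf1b and Mis18a shared no exon bases with another gene.

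Of the 7 genes, 4 start next to a gene on the other strand. The starts of Son and Gart, a purine synthesis enzyme, lie 554 bases apart, those of Paxbp1 and 4931406G06Rik 113 bases, those of Donson and Gm10785 128 bases, and those of Mis18a and Gm17518 108 bases. A start on the other strand within 1000 bases was found for 57.1% of the members, for 11.9% of the 135 protein-coding genes of the segment and for 18.5% of all 21951 protein-coding genes. The 2 stretches below are shown because each lies whole between such a pair of starts, so that it serves as the upstream sequence of both genes. They are the RefSeq sequence of GRCm38.p6 on the minus strand, read 5′ to 3′ towards the member, at chr16:91688771-91688897 for Donson and chr16:90727405-90727511 for Mis18a. Capitals mark GC boxes (GGGCGG) and the core of the NRF1 motif (GCATGCGC), on either strand.
Donson: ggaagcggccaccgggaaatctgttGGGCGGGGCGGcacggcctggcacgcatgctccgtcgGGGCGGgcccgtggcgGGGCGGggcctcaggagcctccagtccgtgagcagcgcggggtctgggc
Mis18a: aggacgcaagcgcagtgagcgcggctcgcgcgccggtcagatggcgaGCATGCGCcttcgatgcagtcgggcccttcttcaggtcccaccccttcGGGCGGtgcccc
The stretch at Donson has a GC content of 77.2% and holds 4 GC boxes, of which 2 overlap, whereas the one at Mis18a has a GC content of 71% and holds 1 GC box and 1 NRF1 core.

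In the RefSeq windows from 250 bases before to 50 bases after the start, which were found for all 7 genes, the GC content ran from 61.7% at Mis18a to 77.7% at Donson, against a median of 52.7% over 32817 promoters. The NRF1 core was present at Paxbp1 and Mis18a and in 2.71% of all promoters, counting both strands. A GC box was present at 6 members, all but Son, and in 35.6% of all promoters. The ETS core (CCGGAAG) was found at Urb1, Donson and Chaf1b and in 8.86% of promoters. Son alone held an NF-Y box (CCAAT, 37.4% of promoters), and Son and Scaf4 held the core of YY1 (ATGGCGGC, 2.24%). No member had a TATA box (TATAAA), which 13.6% of promoters did. These matches describe letters in the window and were not tested for binding.

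The total count per library was 25.9 to 50.1 M with a median of 34.7 M, and no 2 libraries of one group agreed within counting noise (mean chi-square of a gene 9.62 or more, over 50 pairs). Markers of the hippocampus summed to 410 to 521 CPM, the reads of a gene scaled to the size of the library, in the HIP libraries and to 27.8 to 48.2 CPM in the EC libraries. Of the 5 cortical markers, Rorb, Ccn2 and most libraries' Rspo1 were higher in EC, whereas Tshz2 was higher in HIP and Fezf2 was alike, so that the list did not separate the regions. No gene of 10 cell type lists passed the edgeR test between genotypes. In that test 6 of 51 in HIP and 4 of 47 in EC had an unadjusted p under 0.05, beside 11.9% and 6.25% of all tested genes. Markers of dividing cells summed to 4.9 to 7.0 CPM in HIP and 2.28 to 3.83 CPM in EC, the lowest sums of all lists. In HIP, the sum of the cortical list was lower in Ts66Yah (69.2 to 116 CPM) than in wt (126 to 172 CPM) with no overlap. Tshz2 gave the largest part of that list's sum. It alone did not overlap, at 77.1 to 123 CPM in wt and 34.5 to 76.5 CPM in Ts66Yah (adjusted p = 0.0565). The share of all genes with every Ts66Yah library below every wt library was not counted. Choroid plexus markers varied from 110 to 3272 CPM among the wt HIP libraries and from 763 to 2793 CPM among the Ts66Yah ones. The part of these differences in the HIP values given below was not tested.

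Per length, Son was by far the most expressed member. In wt HIP it had 25.2 ± 2.2 CPM per kilobase of exon (RPKM; SD, n = 5), followed by Scaf4 with 5.11 ± 0.30, Paxbp1 with 4.34 ± 0.28, Donson with 3.12 ± 0.26, Mis18a with 3.02 ± 0.46, Urb1 with 1.77 ± 0.025 and Chaf1b with 0.0782 ± 0.037 RPKM. Donson and Mis18a overlapped in that order, and the other neighbours did not. In wt EC the order was Son with 16.9 ± 1.3 RPKM, Scaf4, Donson, Paxbp1, Mis18a, Urb1 and then Chaf1b with 0.144 ± 0.030 RPKM. There, Donson overlapped Paxbp1, Paxbp1 overlapped Mis18a and Mis18a overlapped Urb1, at 2.43, 2.10, 1.90 and 1.68 RPKM, and the other neighbours did not. The CAF-1 subunit Chaf1b rested on 6 to 31 reads per wt library, so its values carry the largest counting error. In bulk tissue, fewer cells of a type and less RNA per cell cannot be told apart.

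**Figure D1:**
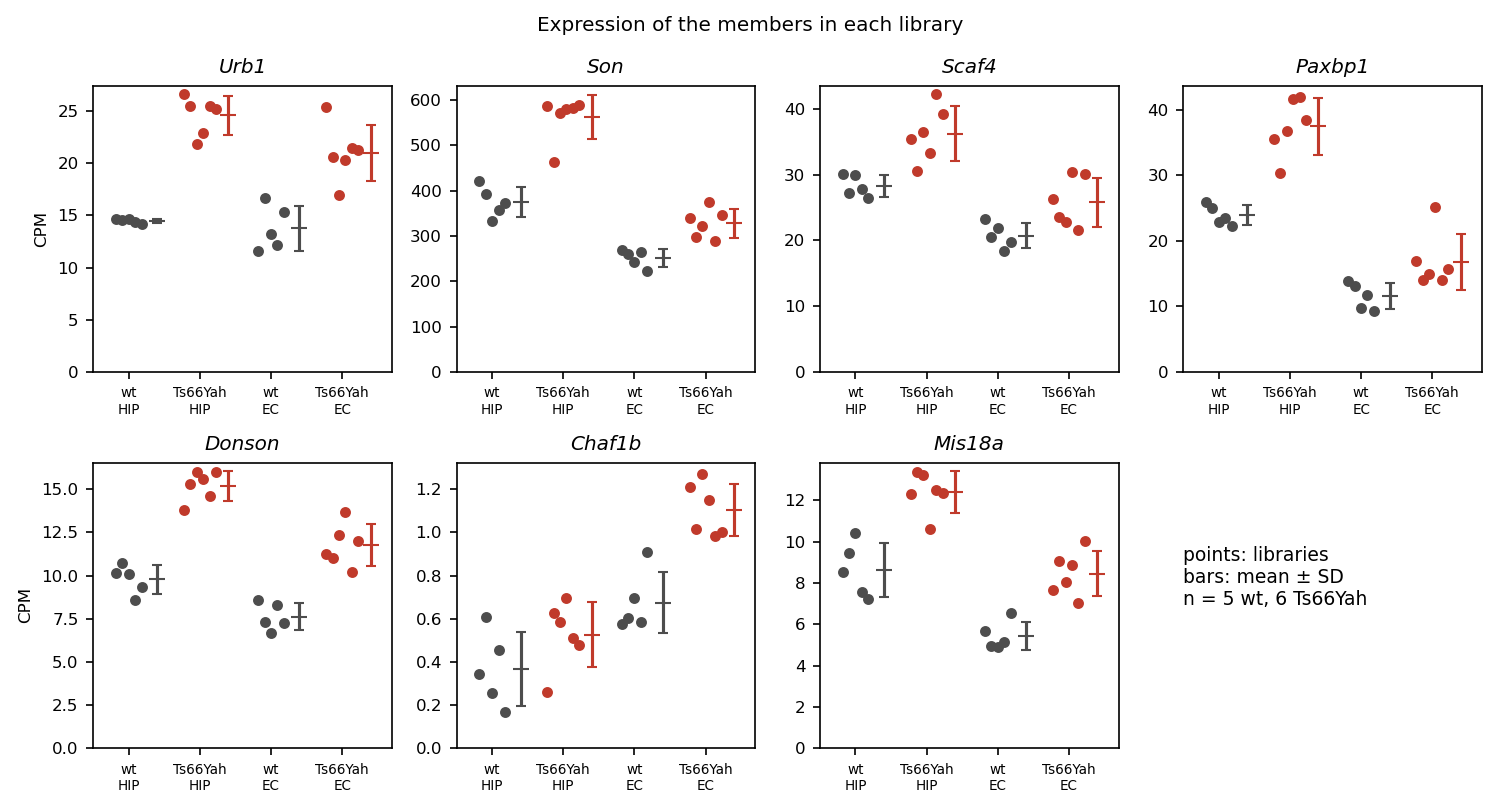
CPM of each member (y axis, linear from 0) in the 22 libraries, by genotype and region (x axis). Points are libraries and bars give the mean ± SD over 5 wt or 6 Ts66Yah libraries. Ts66Yah lies above wt in every panel, with overlap for Chaf1b in HIP and Scaf4 in EC, and Chaf1b is the single member with higher levels in EC than in HIP.

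The comparison of Ts66Yah with wt asked whether the additional copy was seen in the RNA of each gene and region. In HIP, 5 of the 7 genes rose with an adjusted p under 0.05, namely Urb1, Son, Paxbp1, Donson and Mis18a, by 1.43- to 1.70-fold. Over all 18452 genes tested in HIP, 0.439% were called higher, and over the 101 tested genes of the segment 57.4% were. In EC, Urb1, Donson and Mis18a rose, by 1.52- to 1.55-fold, which made 3 of 7, beside 0.272% of 17658 tested genes and 48.4% of the 93 tested segment genes. With both regions summed per animal, 6 of 7 were called higher, all but Chaf1b, beside 0.455% of all genes and 59.6% of segment genes. The fold changes of the 7 genes were above 1 in both regions, from 1.28 to 1.70 in HIP and from 1.25 to 1.64 in EC. Their median log2 fold change was 0.58 in HIP and 0.61 in EC, against 0.59 and 0.57 over the tested segment genes and 0.000014 and -0.0045 over all tested genes.

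Urb1, the ribosome maturation factor, showed the highest fold change of the 7 genes in HIP. The 5 wt HIP libraries had 14.7, 14.6, 14.6, 14.4 and 14.2 CPM, and the 6 Ts66Yah libraries ran from 21.8 over a median of 25.3 to 26.6 CPM. The wt libraries were within 1 CPM of each other, and every Ts66Yah library stood above them. Such a separation of all Ts66Yah from all wt libraries was found for 1.06% of all genes and 64.4% of segment genes in HIP, and for 0.549% and 58.1% in EC. Urb1 rose 1.70-fold in HIP (95% interval 1.55 to 1.85, adjusted p = 1.22e-05). In EC, the wt libraries had 11.6, 16.7, 13.2, 12.1 and 15.3 CPM and the Ts66Yah libraries 16.9 to 25.4 with a median of 20.9 CPM. The groups came close here, at 16.7 against 16.9 CPM, without overlapping, and the rise was 1.52-fold (1.28 to 1.80, adjusted p = 0.0491). That EC call was lost when any 1 of 9 libraries was left out, all but wt replicate 2 and Ts66Yah replicate 3, with the adjusted p up to 0.166 and the log2 fold change between 0.54 and 0.68.

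For Son, the speckle protein, the wt HIP libraries had 422, 392, 334, 356 and 373 CPM. The Ts66Yah HIP libraries had 463 to 588 with a median of 582 CPM, and replicate 2, at 463 CPM, stood apart from the other 5, which lay between 572 and 588 CPM. Every Ts66Yah library was above every wt library, and Son rose 1.5-fold (1.35 to 1.67, adjusted p = 0.000655). In EC the wt libraries had 269, 260, 241, 265 and 222 CPM and the Ts66Yah libraries 289 to 374 with a median of 331 CPM. The EC groups did not overlap either, but the 1.30-fold difference (1.16 to 1.46) missed the threshold over all genes with an adjusted p of 0.0679. With all libraries kept, Son in EC was called by DESeq2 (adjusted p = 0.000884), by edgeR without a filter on low counts (0.0454) and in the fit of all 22 libraries (0.0135), and with edgeR it was called without Ts66Yah replicate 5 (0.0287).

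Scaf4, the polymerase-binding factor that restrains early polyadenylation, had the lowest fold change of the 7 genes in both regions. Its wt HIP libraries held 30.1, 27.3, 30.0, 27.8 and 26.5 CPM and its Ts66Yah HIP libraries 30.6 to 42.3 with a median of 36.0 CPM. The lowest Ts66Yah library thus lay just above the highest wt one, and the 1.28-fold difference (1.14 to 1.43) had an adjusted p of 0.0565. With all libraries kept, Scaf4 in HIP was called by DESeq2 (adjusted p = 0.00189), by edgeR without a filter on low counts (0.0367) and by edgeR with a filter of 1 CPM (0.0481). Leaving out Ts66Yah replicate 2, the lowest of its group, brought the adjusted p of edgeR to 0.0179. In EC, wt libraries at 23.2, 20.4, 21.8, 18.3 and 19.8 CPM overlapped the Ts66Yah libraries, which had 21.6 to 30.3 with a median of 25.0 CPM. The EC difference was 1.25-fold (1.07 to 1.45, adjusted p = 0.524). Summed over both regions, Scaf4 rose 1.28-fold (1.16 to 1.42, adjusted p = 0.0312), and that call was lost without any 1 of 9 animals, all but wt replicate 1 and Ts66Yah replicate 2, where the adjusted p went up to 0.0827.

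Paxbp1 was measured at 25.9, 25.1, 22.8, 23.5 and 22.3 CPM in the wt HIP libraries and at 30.4 to 42.0 with a median of 37.6 CPM in the Ts66Yah ones. The groups were well apart, and Paxbp1 rose 1.57-fold (1.39 to 1.77, adjusted p = 0.000655). In EC, the wt libraries had 13.9, 13.1, 9.83, 11.8 and 9.31 CPM and the Ts66Yah libraries 14.0 to 25.1 with a median of 15.3 CPM. Replicate 4 of Ts66Yah was the high one at 25.1 CPM, and the other 5 ended at 16.9 CPM. The EC groups were separated by less than 1 CPM, and the 1.45-fold difference (1.14 to 1.85) had an adjusted p of 0.446. The antisense transcript 4930404I05Rik, which overlaps its 3′ part, had a fold change of 1.34 in HIP (0.962 to 1.87, adjusted p = 0.482). In EC its fold change was 1.75 (1.17 to 2.61, adjusted p = 0.548). It held 23 to 71 reads per HIP library and 9 to 37 per EC library.

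Donson, the fork protection factor, was called in both regions and had the smallest difference in fold change between them. In HIP, wt libraries had 10.2, 10.7, 10.1, 8.57 and 9.35 CPM and Ts66Yah libraries 13.8 to 16 with a median of 15.5 CPM. In EC, wt libraries had 8.57, 7.30, 6.66, 8.27 and 7.25 CPM and Ts66Yah libraries 10.2 to 13.7 with a median of 11.6 CPM. The genotypes were apart in both regions, and the rise was 1.55-fold in HIP (1.40 to 1.73, adjusted p = 0.00031) and 1.54-fold in EC (1.33 to 1.79, adjusted p = 0.0119). Neither call was lost when a library was left out. Gm10785, which starts on the other strand, had a fold change of 1.36 in HIP (adjusted p = 0.252) and 1.91 in EC (adjusted p = 0.328).

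Chaf1b, the histone chaperone subunit, was close to the limit of detection in HIP. The wt HIP libraries held 0.345, 0.609, 0.255, 0.453 and 0.168 CPM, from 6 to 25 reads, and the Ts66Yah ones 0.263 to 0.694 with a median of 0.547 CPM. The groups overlapped, and the fold change of 1.44 had an interval from 0.883 to 2.35 (adjusted p = 0.562), which at this depth held both no difference and a 2-fold rise. In EC the wt libraries had 0.578, 0.603, 0.695, 0.584 and 0.910 CPM and the Ts66Yah libraries 0.981 to 1.27 with a median of 1.08 CPM. Those groups did not overlap, and the 1.64-fold difference (1.25 to 2.14) had an adjusted p of 0.253.

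For Mis18a, which licenses the centromere, the wt HIP libraries had 8.51, 9.44, 10.4, 7.55 and 7.25 CPM and the Ts66Yah HIP libraries 10.6 to 13.4 with a median of 12.4 CPM. The groups met at 10.4 against 10.6 CPM without overlap, and Mis18a rose 1.43-fold (1.23 to 1.66, adjusted p = 0.0304). In EC, the wt libraries had 5.68, 4.97, 4.89, 5.14 and 6.55 CPM and the Ts66Yah libraries 7.04 to 10.0 with a median of 8.48 CPM, again with none in common, and the rise was 1.55-fold (1.31 to 1.84, adjusted p = 0.037). Both calls depended on single libraries: leaving out any 1 of 8 in HIP (all but wt replicates 2 and 3 and Ts66Yah replicate 4) or any 1 of 9 in EC (all but replicate 5 of each genotype) ended them, with adjusted p up to 0.0851 in HIP and 0.136 in EC. The summed value of both regions was 1.49-fold (adjusted p = 0.00156) and was called without each animal in turn.

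**Figure D2:**
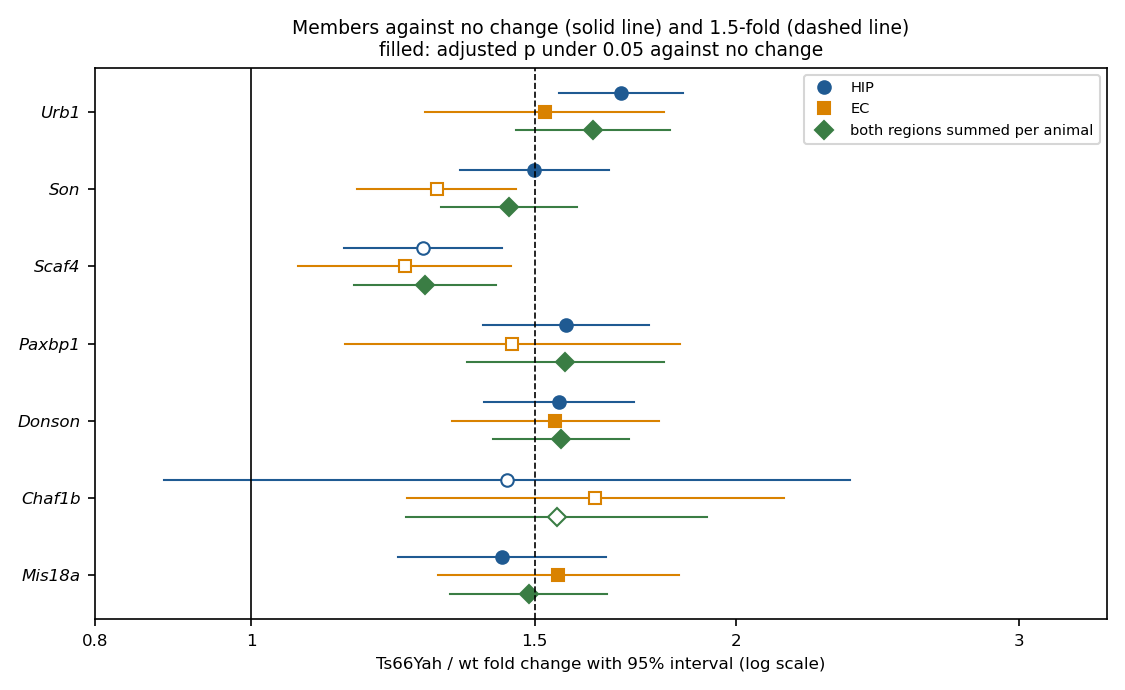
Fold change of Ts66Yah over wt (x axis, log scale) with its 95% interval for each member in HIP, EC and both regions summed per animal. Filled symbols had an adjusted p under 0.05 against no change. The intervals of Scaf4 in all 3 comparisons and of Son in EC end below the dashed 1.5-fold line. The HIP interval of Urb1 starts above it. No member departed from 1.5 after adjustment over the tested segment genes.

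A second test asked whether any fold change differed from the 1.5 that 3 copies would give. No member departed from 1.5 in edgeR's quasi-likelihood test after adjustment over the tested segment genes, in HIP, EC or the sum, where 5.94%, 1.08% and 3.67% of segment genes did. At an unadjusted p under 0.05 there were 2 members in HIP, 2 in EC and 1 in the sum, beside 20.8%, 11.8% and 14.7% of segment genes. In HIP these were Urb1 above 1.5 (adjusted p = 0.103) and Scaf4 below it (adjusted p = 0.102). In EC they were Son and Scaf4, both below 1.5 and each with an adjusted p of 0.233. Scaf4 was the member found in the sum, with an adjusted p of 0.0754. With DESeq2 in place of edgeR the adjusted p of Scaf4 in the sum was 0.0308. Leaving out Ts66Yah replicate 5 in HIP gave 0.0272, and leaving out Ts66Yah replicate 6 in the sum gave 0.0385. Of the 101 segment genes in HIP, Urb1 ranked 11 by fold change from the top and Scaf4 88, and in EC they ranked 37 and 80 of 93.

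Within a library, the members could be set against each other, which removes any scaling of the library; these ratios were examined after the levels had been seen and were not tested. The log2 ratio of Urb1 to Scaf4 in HIP was -0.96 ± 0.068 in wt (SD, n = 5) and -0.55 ± 0.19 in Ts66Yah (n = 6), with no overlap. In HIP the log2 ratio of Scaf4 to Paxbp1 went from 0.24 ± 0.099 in wt to -0.049 ± 0.14 in Ts66Yah. In EC the log2 ratio of Son to Donson was 5.04 ± 0.11 in wt and 4.80 ± 0.078 in Ts66Yah. These were the 3 of 42 ratios, over 21 pairs and both regions, whose groups did not overlap. The share of such ratios among other segment genes was not counted, so whether 3 of 42 is unusual was not tested. Urb1 and Scaf4 had the highest and the lowest fold change of the members in HIP, so their ratio restates that ranking.

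The genotype effects were then compared between regions. No member differed between HIP and EC by the interaction test of edgeR or under its 16 alternatives, DESeq2 included. With edgeR 0 of 19074 genes were called, and 388 genes (2.03%), but no member, had an unadjusted p under 0.05. Son had the smallest p, with a log2 effect lower by 0.20 in EC (95% interval -0.42 to 0.023). For Donson the log2 difference was -0.0072 with an interval from -0.25 to 0.24, and for Chaf1b it was 0.18 with an interval from -0.57 to 0.94, so that a difference of the size of the genotype effect itself was not detectable for Chaf1b. These values come from a fit without an animal term, although each animal gave a library of both regions. With the animal as a block, edgeR called 0 genes, and 726 genes had an unadjusted p under 0.05. Whether a member was among those 726 is not given here. The absence of members at that level holds for the fit without an animal term.

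Between the regions the levels themselves were far apart. In wt mice 6 of the 7 genes differed between EC and HIP, all but Urb1, and in Ts66Yah mice all 7 did, beside 47.7% and 54% of all genes tested. By direction, 23.4% of genes were higher and 24.3% lower in wt EC, and 26.4% higher and 27.5% lower in Ts66Yah EC. Paxbp1 showed the widest gap, with 0.484 of its HIP level in wt EC (0.411 to 0.571, adjusted p = 7.08e-06) and 0.448 in Ts66Yah EC (adjusted p = 4.65e-06). Son was at 0.671 of its HIP level in wt EC, Mis18a at 0.631, Scaf4 at 0.733 and Donson at 0.779. The HIP library was the higher one in all 5 wt and all 6 Ts66Yah animals for each of these 5 genes. Chaf1b went the other way, 1.85-fold higher in EC in wt (1.15 to 2.98, adjusted p = 0.0323) and 2.09-fold higher in Ts66Yah (1.54 to 2.84, adjusted p = 0.000479). Its EC library was the higher one in 4 of 5 wt and 6 of 6 Ts66Yah animals, and the wt call was lost without wt replicate 1, 3 or 5, with the lowest log2 fold change, 0.58, without replicate 5, and also without a filter on low counts (adjusted p = 0.0521). Urb1 was at 0.953 of its HIP level in wt EC (0.819 to 1.11, adjusted p = 0.6) and at 0.852 in Ts66Yah EC (0.752 to 0.964, adjusted p = 0.0297). The latter call was lost without Ts66Yah replicate 2, 5 or 6 (adjusted p 0.07 to 0.0825) and without a filter (0.0527), and the call of Donson in wt was lost without wt replicate 2 or 3 (0.0536 and 0.0568). The comparisons within wt and within Ts66Yah use different animals.

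**Figure D3:**
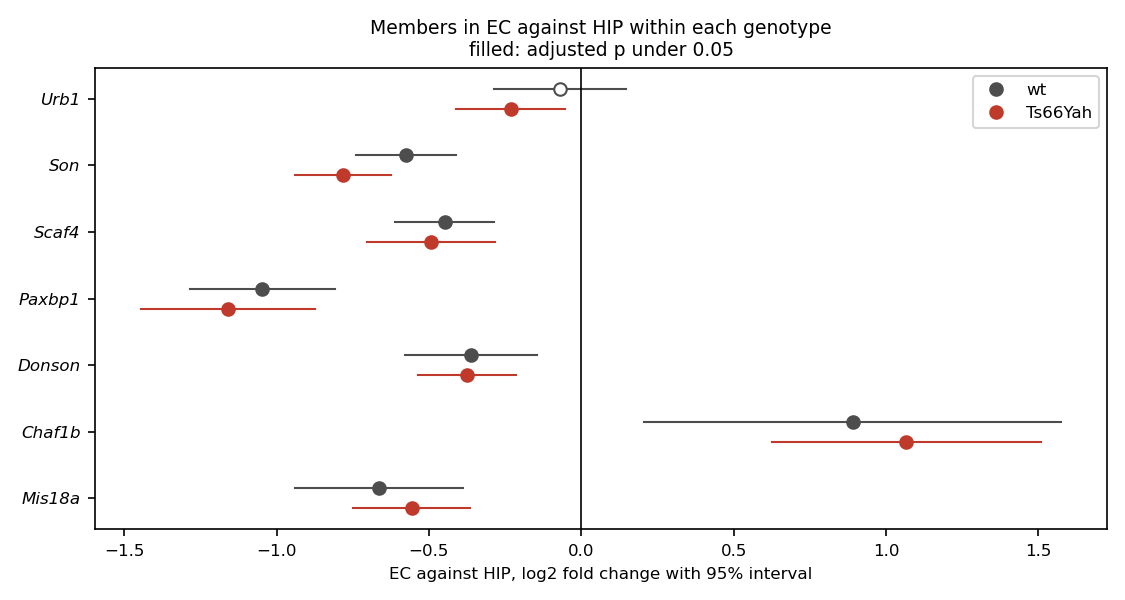
Log2 fold change of EC against HIP (x axis) with its 95% interval for each member, within wt (grey) and within Ts66Yah (red). Filled symbols had an adjusted p under 0.05. Chaf1b lies to the right of 0 in both genotypes, the other called values lie to the left, and Paxbp1 is the farthest left.

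Across libraries, some members moved together once the means of the 4 groups were removed. Over the 22 libraries, Pearson's r of the residual log2 CPM was 0.80 between Son and Paxbp1, 0.61 between Paxbp1 and Donson, 0.59 between Son and Scaf4 and 0.59 between Scaf4 and Paxbp1. Urb1 and Donson had the lowest value, at -0.45. These values are a description, since the members share a library, its depth and its composition. The same libraries recurred at the edges. Ts66Yah HIP replicate 2 had the lowest Son, Scaf4 and Paxbp1 of its group, at 463, 30.6 and 30.4 CPM, whereas Ts66Yah EC replicate 4 had the highest Son, Scaf4, Paxbp1 and Donson of its group, at 374, 30.3, 25.1 and 13.7 CPM.

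Among 14884 genes outside the segment, the 2 with the most similar residual pattern were named for each member. For Son they were Srrm2, another large scaffold protein of nuclear speckles, with r = 0.93, and Nvl, a nucleolar ATPase of ribosome maturation, with r = 0.91. For Paxbp1 they were Nktr, a cyclophilin with an RS-rich domain, with r = 0.94, and Gm43843 with r = 0.93. For Scaf4 they were Zfhx2 and Zfp236 (0.87 and 0.86), both zinc finger genes. For Donson they were Xpo5, the exporter of precursor miRNAs (0.87), and Polr2a, the largest subunit of RNA polymerase II (0.83). Urb1 (Tmem229b 0.75, Sertad2 0.74), Mis18a (Wnt2 0.76, Samd15 0.71) and Chaf1b (Aptx 0.68, Vipas39 0.66) had weaker ones. Each r is over 22 libraries, and the genes were picked as the highest of all those searched.

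Neighbours that share a start or span with a member were also triplicated. Gart, head to head with Son, rose 1.5-fold in HIP (1.39 to 1.62, adjusted p = 3.41e-05) and 1.49-fold in EC (1.35 to 1.65, adjusted p = 0.000804). Sod1, the superoxide dismutase whose 3′ end reaches into the span of Scaf4, rose 1.35-fold in HIP (adjusted p = 0.007) and had a fold change of 1.38 in EC (adjusted p = 0.121). The transcript 4931406G06Rik at Paxbp1 was too low to be tested, and Gm17518 at Mis18a had no entry in the count table.

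Lastly, genes outside the segment that act with the members were examined, 108 genes in 7 lists of known partners, of which 105 passed the filter in each region. In HIP 2 of the 105 were called, both lower in Ts66Yah, beside 0.591% of all genes called in either direction and 0.152% called lower. They were Cenpb, the protein that binds the centromeric box, which fell from 205 ± 8.9 CPM (SD, n = 5) to 169 ± 10.6 CPM (n = 6; log2 fold change -0.28, adjusted p = 0.0168), and Hira, the chaperone of histone H3.3, from 22.2 ± 0.70 to 18.4 ± 1.1 CPM (log2 fold change -0.27, adjusted p = 0.0493). In EC none of the 105 was called with edgeR or under any of the 20 alternatives, DESeq2 and limma voom included, and 7 had an unadjusted p under 0.05, or 6.67% beside 6.25% of all genes. In HIP 12 had one, or 11.4% beside 11.9%. The EC log2 fold change was -0.21 for Cenpb (adjusted p = 0.709) and -0.26 for Hira (adjusted p = 0.524). Both HIP calls were unstable: with any 1 library left out, at most 1 partner gene was called.

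By list, the median log2 fold change of the 20 partners of Urb1 in ribosome maturation was 0.0032 in HIP and -0.021 in EC, with 10 and 9 genes above 0. Nifk had the smallest p in HIP (log2 fold change 0.19, adjusted p = 0.164) and Ddx27, an RNA helicase, in EC (-0.16, adjusted p = 0.787). Urb2, the partner protein of Urb1, had 0.085 and 0.086. The 21 speckle and SR proteins around Son had medians of -0.044 and -0.051, with 3 genes above 0 in HIP and 5 in EC. Srsf5, a splicing factor of the SR family, had the smallest p in both (-0.11, adjusted p = 0.371; -0.26, adjusted p = 0.457). For the 20 polymerase-tail and 3′ end factors around Scaf4 the medians were -0.015 and -0.0097. Scaf1 in HIP (-0.19, adjusted p = 0.164) and Sympk, a scaffold of cleavage and polyadenylation, in EC (-0.14, adjusted p = 0.735) had the smallest p, and the paralogue Scaf8 had 0.036 and 0.044. Of 8 genes listed around Paxbp1, the 6 intron release factors were tested, with medians of -0.058 and -0.038. Pax3 and Pax7, its binding partners, did not pass the filter. The smallest p belonged to Dbr1, the lariat debranching enzyme, in HIP (-0.14, adjusted p = 0.494) and to Cwf19l2 in EC (-0.11, adjusted p = 0.959), and Gcfc2 had 0.025 and 0.018.

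The 19 tested replication fork proteins around Donson had medians of 0.012 in HIP and 0.013 in EC, with Tipin (-0.20, adjusted p = 0.24) and the helicase subunit Mcm7 (-0.23, adjusted p = 0.672) as the genes of smallest p. The 11 histone chaperones and partners of Chaf1b had -0.010 and -0.085, with 5 and 1 genes above 0. All 8 centromere genes around Mis18a were below 0 in HIP, with a median of -0.15, whereas 5 of 8 were above 0 in EC, with a median of 0.057. Plk1, a mitotic kinase, had the smallest p of them in EC (-0.68, adjusted p = 0.672), at 0.454 ± 0.085 CPM in wt. Across all tested genes the medians were 0.000014 and -0.0045, and the whole set of partners had medians of -0.027 in HIP and -0.031 in EC.

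**Figure D4:**
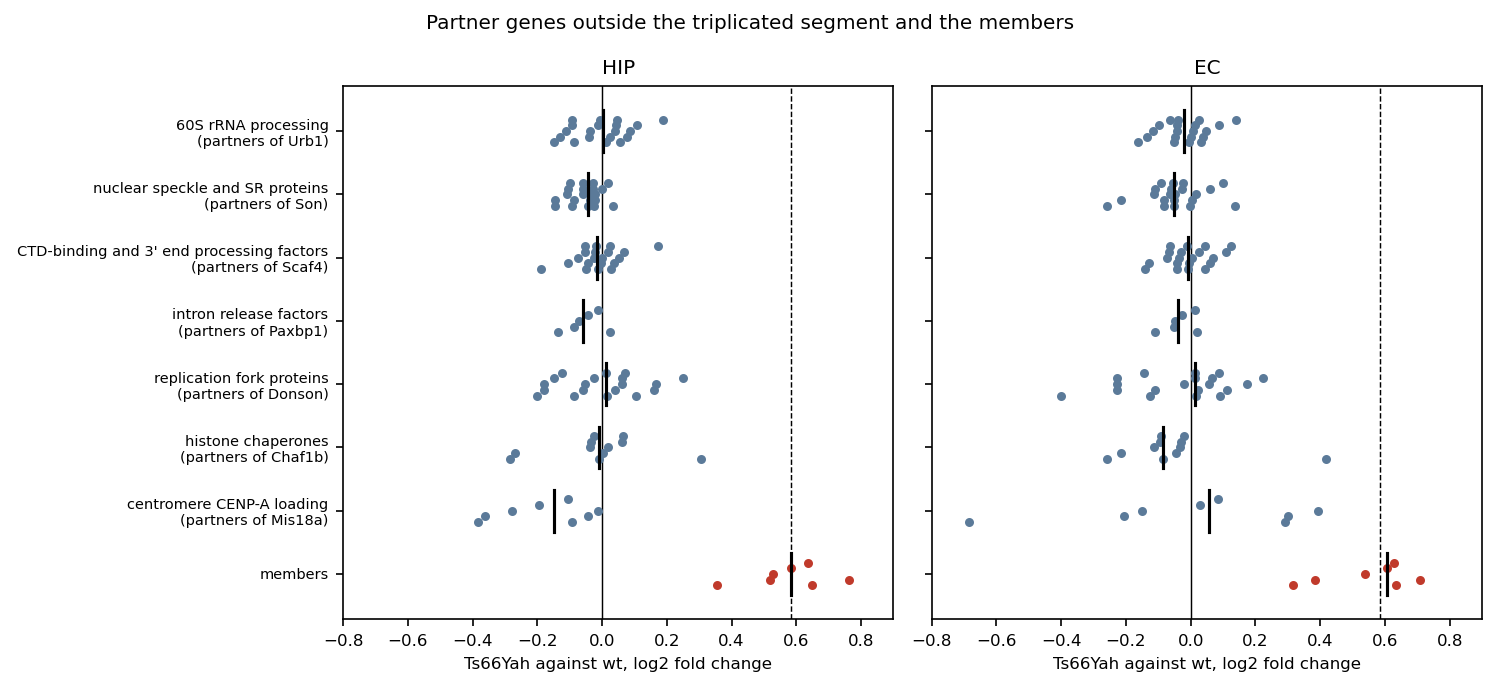
Log2 fold change of Ts66Yah against wt (x axis) of the tested genes in 7 partner lists outside the segment (blue) and of the 7 members (red), in HIP and EC. Each point is a gene, short black lines are medians, the solid line marks no change and the dashed line 1.5-fold. The list medians lie between -0.15 and 0.057, and the member medians at 0.58 and 0.61.

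The animal numbers in the labels fell into a lower and a higher range, with wt replicate 1 in neither. Within each range and region the mean log2 CPM of all 7 members was higher in Ts66Yah than in wt, by 0.27 to 0.79 in the lower range and by 0.32 to 0.75 in the higher one. The fit with the range as a block left out wt replicate 1. In that fit the calls of Mis18a in HIP (adjusted p = 0.0568) and EC (0.146) and of Urb1 in EC (0.191) were lost. Scaf4 in HIP was called (0.0244). Leaving out wt replicate 1 without the block also ended the same calls of Mis18a and Urb1.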

How the data were processed

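RNA-Seq was analysed from 22 libraries of HIP and EC from 5 wt and 6 Ts66Yah male mice, grouped by their labels. The labels describe a stranded, poly(A)-selecting kit, whereas the study's methods also name depletion of ribosomal RNA. Per the study's methods, reads were mapped with Hisat2 to GRCm38 (mm10) and assigned by HTSeq; versions, strand setting and handling of multi-mapping reads are not given in the sources used here. The submitters' processing notes name bcl2fastq 2.17.1.14 and DESeq2. The authors deposited raw counts per gene, whole numbers of reads with no normalization, and tables of their own comparisons (DESeq2 and FCROS fold changes and p-values), which were not used. Each column name matched the label of 1 sample.

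Counts were tested with edgeR 4.0.16 (R 4.3.3; TMM factors, filterByExpr, quasi-likelihood test, genotype as the only term within a region). Adjusted p-values are Benjamini-Hochberg values over all tested genes, with a threshold of 0.05. For departure from 1.5, the log of 1.5 was added to the offsets of Ts66Yah libraries for segment genes, and p-values were adjusted over those. Fits of EC against HIP and the interaction had no animal term. CPM are scaled by TMM over all 22 libraries; log2 CPM used a prior count of 2, and RPKM divides CPM by the exon bases in GENCODE M21, to which 55144 identifiers matched. The triplicated segment runs from Mir155 to the end of Mmu16. The scripts were tested on simulated data. Named are the 7 members, genes overlapping or starting within 1000 bases of one, 3 paralogues or partners (Scaf8, Gcfc2, Urb2), called list genes or else the gene of smallest p per list, and the 2 genes most alike in residual pattern (mean of at least 1 CPM). Members and lists were chosen with earlier results of these data known. Within a region and in the sum, the p-values measure the spread between single animals. Those of EC against HIP and of the interaction treat the HIP and EC libraries of an animal as independent. The 95% intervals come from the fits.

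Alternatives were DESeq2 1.42.0, limma 3.58.1 (voom), RLE factors, no filter, at least 1 CPM in at least 5 libraries, TMM without segment genes, all 22 libraries in one fit, replicate, animal or animal number range as a block, and the omission of each library or animal in turn. The fit with the range block left out wt replicate 1, which is in neither range. HIP and EC libraries of one animal deviated together (r of 0.21 to 0.45, 11 of 11 pairs over 0.1), and wt and Ts66Yah libraries come from different animals.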

Additional observations from a re-analysis of the deposited data

Results flagged for a closer look

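Of 28 groups of libraries examined, 4 for each of the 7 genes, 3 held a library whose gap to its nearest neighbour was large for the range of the group; chance gives about 5%. Son was low in Ts66Yah HIP replicate 2, at 463 CPM against 572 to 588 CPM in the other 5, a gap of 0.880 of the range. Paxbp1 was high in Ts66Yah EC replicate 4, at 25.1 CPM against 14.0 to 16.9 CPM, a gap of 0.672 of the range. Mis18a was low in Ts66Yah HIP replicate 4, at 10.6 CPM against 12.3 to 13.4 CPM, a gap of 0.643 of the range.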

How the results depend on the processing

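In HIP, 4 to 6 members were called under the 20 alternatives, and in the sum 4 to 6 under 19. In EC the main count of 3 went to 4 with DESeq2, without a filter and in the fit of all 22 libraries, Son being the fourth, to 0 with the replicate block, to 1 with the animal number range as a block and to between 1 and 3 with a library left out; it was 1 without wt replicate 1, 3 or 4 or Ts66Yah replicate 1, 2, 4 or 6. Fits with a library left out also hold fewer libraries, and the cause was not tested. Between 0 and 1 members departed from 1.5 in HIP and in the sum with a library or animal left out, and 1 did in the sum with DESeq2. The 2 partner genes called in HIP became 3 with DESeq2, 1 with RLE factors, without a filter and with the replicate block, 0 with the range block and in the fit of all 22 libraries, and 0 to 1 with a library left out, where it was 0 without wt replicate 3 or 5.

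In HIP, same-numbered wt and Ts66Yah libraries did not deviate together. There r was over 0.1 in 0 of 5 pairs, and 1 of 5 wt libraries was closest to its own number. In EC r was over 0.1 in 2 of 5 pairs, at 0.11 and 0.18. There 3 of 5 wt and 2 of 5 Ts66Yah libraries were closest to their own number. Whether the numbers mark a shared processing step in EC was not tested. With the replicate number as a block, members called went from 5 to 4 in HIP, from 3 to 0 in EC and from 6 to 4 in the sum. Ts66Yah replicate 6 has no wt library of its number and adds nothing to the genotype difference in that fit. Animal as a replicate block changed no count between regions or in the interaction (6 in wt, 7 in Ts66Yah, 0).

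Values close to their null changed sign. Against 1.5 in HIP (log2), Son was 0.000077 without a filter, 0.00303 with the 1 CPM filter, 0.053 with the range block and -0.040 to 0.049 with a library left out. Chaf1b was 0.00437 with limma voom, 0.011 with the replicate block and -0.24 to 0.24 with a library left out, where Mis18a was -0.13 to 0.012. In EC, Mis18a was -0.00165 with the replicate block and -0.0036 to 0.12 with a library left out. Urb1 was -0.014 and Paxbp1 0.015 with the range block, and -0.042 to 0.097 and -0.20 to 0.037 with a library left out; Donson was -0.0061 to 0.097. In the sum, Chaf1b was -0.020 and Mis18a 0.00551 with the range block, and -0.0033 to 0.11 and -0.059 to 0.030 with an animal left out. The interaction of Donson was 0.0071 without a filter and -0.062 to 0.069 with an animal left out, where Chaf1b was -0.14 to 0.50 and Scaf4 -0.11 to 0.057. No member's difference from no change reversed in HIP, EC or the sum. Depth limits Chaf1b most, with 6 to 29 reads per HIP library.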
